A study of Homo sapiens with 18 samples.

Results

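RNA of prostate cancer cells given the antiandrogen enzalutamide for 48 h was compared with RNA of the same cells given the solvent DMSO. Both groups held 3 libraries, 6 of the 18 in the series, and were chosen by their labels alone. The cells were 16D, an established castration-resistant line derived from LNCaP prostate cancer cells, of a genotype labelled WT, and all libraries came from cells kept in RPMI with 10% FBS and 1% Penn/Strep. The treated group had received 10 µM enzalutamide for 48 h. The libraries of 24 h and 96 h, 3 each at the same dose, serve below to place 48 h in time. All 18 libraries entered the fit, also those of 144 h and of long-term enzalutamide at the same dose. The spread behind every p-value was estimated from all 6 groups. The labels give no harvest time for DMSO, so drug and time in culture cannot be told apart. They also do not say that replicates were separate cultures, so p-values measure only the spread between libraries within these groups. All results are for 1 cell line.

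Enzalutamide binds the androgen receptor, a nuclear receptor that androgens switch on, and keeps it from entering the nucleus and binding DNA. In prostate cells the active receptor sits with FOXA1, HOXB13 and GATA2 at androgen response elements and drives secretory genes of the luminal epithelium, among them the kallikreins. Castration-resistant cells grow at low androgen levels but usually still use the receptor.

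Values were TPM, a relative abundance scaled to the same total in each library and corrected for transcript length, and 16169 of the 60623 genes in the table had at least 1 TPM in at least 3 of the 18 libraries and were tested. Genes with at least 1 TPM numbered 14418 to 14510 in the DMSO libraries and 14622 to 14655 in those of 48 h. Mitochondrially encoded transcripts took 17.7% to 20.6% of TPM in DMSO and 20.1% to 20.5% at 48 h; 3959 genes were called at 48 h against DMSO with that share as a covariate and 3617 after rescaling without these genes, against 2823 in the fit reported here. Log2 values correlated across genes with r of 0.989 to 0.990 within the groups and 0.978 to 0.982 between them. No library stood apart from its own group by these correlations. DMSO replicate 2 had the lowest mitochondrial share of the 6, 17.7%, against 19.8% and 20.6% in DMSO replicates 1 and 3. It also correlated least of the DMSO libraries with each 48 h library (r of 0.978 to 0.980). The luminal keratins KRT8 and KRT18 were at 139 to 272 TPM in all 6 libraries. The basal markers KRT5 and TP63, the neuroendocrine marker CHGA, the leukocyte marker CD3E, the fibroblast marker COL1A2 and the endothelial marker PECAM1 were listed at 0 in all 6. Other markers of these kinds were not at 0. The endothelial marker VWF was at 1.71 to 2.66 TPM and the neuroendocrine marker SYP at 1.13 to 1.46 TPM. The leukocyte marker CD68 was at 0.16 to 0.83 TPM and the fibroblast marker COL3A1 at 0.03 to 0.34 TPM. All listed fibroblast markers summed to 18.2 to 20.8 TPM in DMSO and 24.0 to 26.9 TPM at 48 h. In such bulk RNA, fewer cells of a kind and less RNA per cell cannot be told apart.

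The 2 kallikrein genes with the largest decreases are neighbours on chromosome 19, and their promoters are shown because the receptor is known to act there. The sequences are from RefSeq (GRCh38.p14) and run 5′ to 3′ on the plus strand, the coding strand of both genes, over the 250 bases before each RefSeq start. Capitals mark the 15 bases of the androgen response element known from the KLK3 promoter and its copy in KLK2; the element is the core AGAACA, 3 free bases and 6 further fixed bases. KLK3 is shown at chr19:50854665-50854914 and KLK2 at chr19:50873189-50873438.
KLK3: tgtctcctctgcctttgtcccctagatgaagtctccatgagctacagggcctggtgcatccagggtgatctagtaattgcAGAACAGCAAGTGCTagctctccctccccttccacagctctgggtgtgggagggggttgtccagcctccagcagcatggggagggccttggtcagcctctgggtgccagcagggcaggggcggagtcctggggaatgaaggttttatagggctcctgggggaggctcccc
KLK2: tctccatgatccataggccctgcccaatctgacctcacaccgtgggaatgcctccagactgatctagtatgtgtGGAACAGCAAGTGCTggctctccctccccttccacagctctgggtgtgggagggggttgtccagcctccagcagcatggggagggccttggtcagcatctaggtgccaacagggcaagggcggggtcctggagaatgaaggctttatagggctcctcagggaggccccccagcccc
The element begins 170 bases before the start of KLK3 and 176 bases before that of KLK2. The KLK2 copy differs by A1G, with positions counted from 1 at the 5′ end of the motif and the motif's base given first, and the other 14 bases of both copies are identical.

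KLK3 encodes prostate-specific antigen, a secreted protease (ENSG00000142515, chr19:50854915-50860764 in GENCODE 29, GRCh38). It was at 1038, 1037 and 989 TPM in the DMSO libraries and at 174, 169 and 172 TPM after 48 h, 5.96-fold lower as a ratio of means. Every treated library lay far below every control library, and the log2 fold change, taken on log2(TPM + 1) here and throughout, was -2.57 ± 0.06 (SE, adjusted p = 1.9e-13 in limma's moderated test with Benjamini-Hochberg adjustment over all genes tested). KLK2, the kallikrein gene downstream of it, was at 158, 149 and 147 TPM in DMSO and at 11.4, 12.4 and 11.8 TPM at 48 h, 12.7-fold lower (log2 fold change -3.56 ± 0.09, adjusted p = 2.04e-13). Both genes are alike in sequence, which leaves the split of reads between them uncertain.

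Of the 10321 tested genes whose symbol matched a RefSeq promoter, which reaches from 250 bases before to 50 after the start, 4 held the KLK3 element, with its 3 middle bases free, on either strand (0.0388%, against 0.022% of all 27305 promoters). KLK3 was the only called gene among the 4, but the element is that of its own promoter, so its match was given. With 1 mismatch allowed, 14 tested promoters held the element (0.136%, against 0.227% of all promoters). That search was added after the KLK2 promoter was seen, so the matches of KLK2 and KLK3 were known in advance. The 14 were 3 genes called lower, KLK2, KLK3 and the ubiquitin ligase gene RNF41 (log2 fold change -0.40), 0 called higher and 11 with no call. These were 0.308% of the promoters of genes called lower and 0.133% of those with no call. The palindromic consensus of the androgen response element, in which the core is followed after 3 free bases by its reverse complement, was in 0 tested promoters and in 1 of all promoters. The core AGAACA alone, which also lies inside both longer motifs, was in 8.53% of tested promoters, 9.76% of those of genes called lower, 8.89% of those called higher and 8.33% of those with no call. Among genes called lower by at least 1 on the log2 scale it was in 15 of 99 promoters (15.2%), and among those called higher by as much in 5 of 68 (7.35%). It was in 14.9% of all promoters in the table. These are matches of letters in short windows, not measured binding.

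Genes were called changed at an adjusted p under 0.05. At 48 h 17.5% of the tested genes were called, 9.38% higher and 8.08% lower. Changes of at least 1 on the log2 scale were called in 1.68%: 0.755% were called higher and 0.928% lower. On log2(TPM + 1) these were 272 genes, and adding 0.1 in place of 1 gave 544, which raises the changes of low genes. Genes called lower numbered 1306, and 843 without DMSO replicate 2. For 39.8% of genes every library of 1 group lay above every library of the other. The share of genes called lower grew with expression level, from 4.03% in the lowest quartile to 13% in the highest, whereas genes called higher made up 7.27%, 11.4%, 9.52% and 9.33% of the quartiles from low to high. Of 12413 protein-coding genes 20.1% were called, and of 691 genes annotated as long intergenic RNAs 11.9%. None of 30 mitochondrially encoded genes was called.

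**Figure D1:**
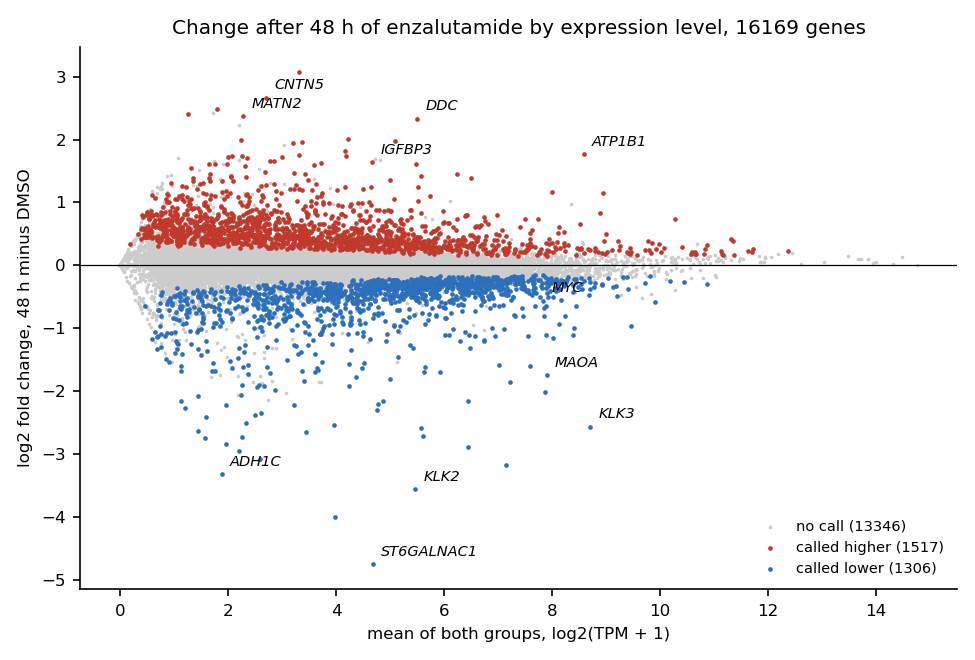
Log2 fold change of 48 h minus DMSO (vertical axis) against the mean log2(TPM + 1) of both groups (horizontal axis) for 16169 genes, with genes called higher in red (1517), called lower in blue (1306) and without a call in grey. The largest decreases, such as ST6GALNAC1 at -4.76 and KLK2 at -3.56, reach further from 0 than the largest increases.

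Of 28 tested genes listed for the receptor and its chaperones, pioneer factors, coactivators and corepressors, 4 were higher and 4 lower (7 lower after median-of-ratios scaling), with a median log2 fold change of -0.03 against 0.00200 over all genes tested. FKBP5, a co-chaperone of steroid receptors that is itself androgen-induced, was at 85.7, 95.9 and 79.5 TPM in DMSO and at 28.8, 27.0 and 26.7 TPM at 48 h, 3.16-fold lower. ZBTB16, a transcription factor gene induced by steroid hormones, was at 22.5, 21.3 and 21.0 TPM and then at 5.93, 5.82 and 6.69 TPM, 3.51-fold lower. The libraries of both genes were well separated (adjusted p = 1.02e-08 and 6.11e-09). In the other direction, the pioneer factor gene GATA2 rose from 154, 169 and 157 TPM to 228, 234 and 226 TPM (log2 fold change 0.52 ± 0.08, adjusted p = 0.000177), and NCOA3, a steroid receptor coactivator gene, from 3.67, 4.07 and 3.13 TPM to 6.81, 6.28 and 6.18 TPM (0.69 ± 0.11, adjusted p = 0.000356).

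Of 21 tested genes that mark luminal prostate epithelium, 14 fell and 4 rose, beside 8.08% lower and 9.38% higher of all genes tested. The median log2 fold change of the 21 was -1.13. Libraries of both groups overlapped for none of the 21, and 39.8% of all genes tested were likewise without overlap. The summed level of the luminal genes was 3685 to 3887 TPM in the DMSO libraries and 1756 to 1791 TPM at 48 h. SLC45A3, which encodes the membrane protein prostein, fell 7.64-fold, from between 237 and 239 TPM to between 30.9 and 31.7 TPM. TMPRSS2, a membrane serine protease, was at 104, 123 and 99.0 TPM in DMSO and at 36.5, 29.5 and 32.5 TPM at 48 h, 3.31-fold lower (adjusted p = 3.82e-08). The secreted zinc-alpha-2-glycoprotein gene AZGP1 fell 3.65-fold, and KLK4 and SPDEF, a prostate ETS factor, fell from 279 to 127 and from 161 to 69.2 TPM on average. Both, like the next 4, were named after their values were seen. The 4 that rose were ACPP (prostatic acid phosphatase, 8.003 to 18.3 TPM), HOXB13 (168 to 223 TPM), CD24 (3.43 to 6.53 TPM) and FOLH1 (prostate-specific membrane antigen, 269 to 332 TPM). The luminal group did not fall as 1 block, and FOLH1 lost its call without 5 of the 6 libraries in turn, all but DMSO replicate 2 (adjusted p up to 0.163).

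**Figure D2:**
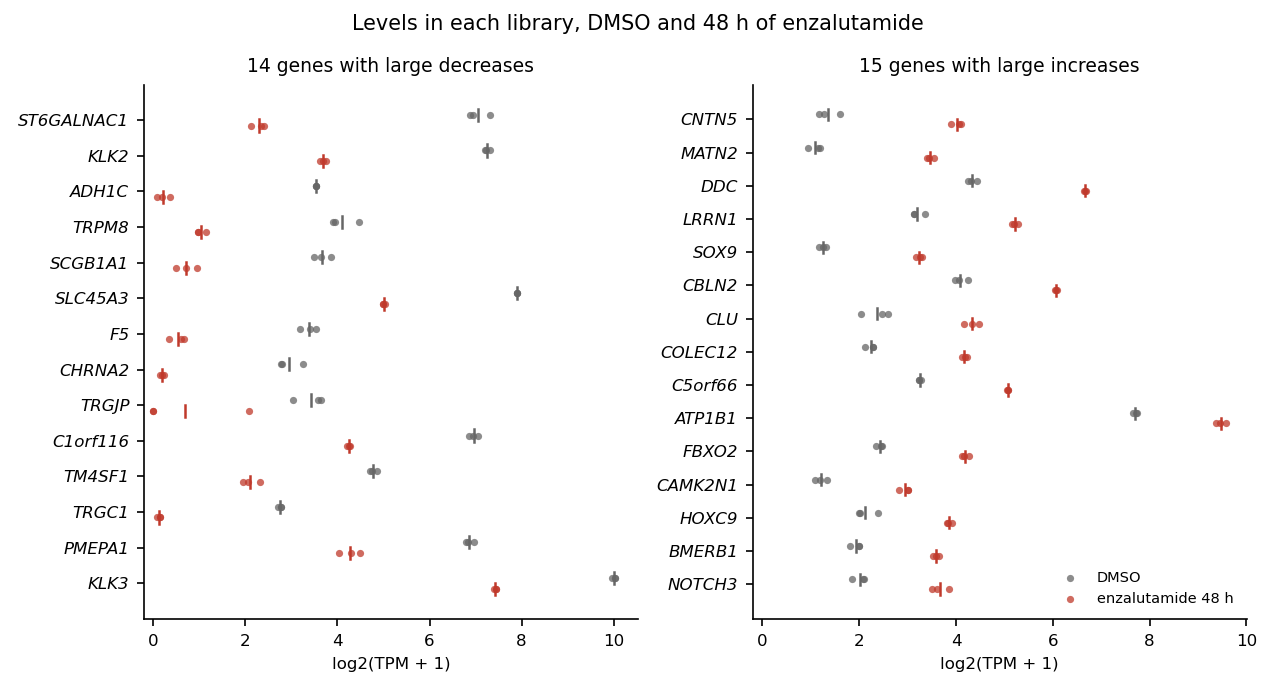
Log2(TPM + 1) (horizontal axis) of 14 of the 15 genes with the largest decreases and the 15 with the largest increases at 48 h, small RNAs, LINC, antisense and clone names and pseudogenes left out, with 1 point for each of 3 DMSO (grey) and 3 enzalutamide (red) libraries and a bar at each group mean. Points of both groups are apart for all genes shown because only genes without overlap were picked. TRGJP has 2 treated libraries listed at 0 and 1 at 3.22 TPM.

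The 15 largest decreases also held genes beside the kallikreins and SLC45A3. ST6GALNAC1, a sialyltransferase that makes the sialyl-Tn antigen, had the largest decrease on the log2(TPM + 1) scale: 122, 158 and 117 TPM in DMSO against 3.33, 4.32 and 4.05 TPM at 48 h, 33.9-fold lower (log2 fold change -4.76 ± 0.15, adjusted p = 1.69e-12). ADH1C, an alcohol dehydrogenase, went from 10.7, 10.5 and 10.6 TPM to 0.06, 0.28 and 0.15 TPM, 64.9-fold lower. TRPM8, a cold-sensing ion channel, fell from 14.5, 21.3 and 13.99 TPM to 0.96, 0.95 and 1.23 TPM, and the club cell secretory protein gene SCGB1A1 from 11.6, 13.6 and 10.2 TPM to 0.92, 0.63 and 0.41 TPM. All treated libraries of these genes lay at or near the floor of what the filter keeps, at 1.23 TPM or less except for ST6GALNAC1. F5 (coagulation factor V) fell 20.8-fold, CHRNA2 (a nicotinic acetylcholine receptor subunit) 46.2-fold, C1orf116 6.87-fold, TM4SF1 (a tetraspan membrane protein) 7.86-fold and PMEPA1 (an inhibitor of TGF-beta signalling) 6.22-fold. TRGC1, a constant segment of the T cell receptor gamma locus on chromosome 7, was at 5.88, 5.55 and 5.83 TPM in DMSO and at 0.10, 0.06 and 0.10 TPM at 48 h, although CD3E was listed at 0 in all 6 libraries. The nearby joining segment TRGJP was at 7.24, 11.5 and 10.99 TPM and then at 0, 0 and 3.22 TPM, and its call (adjusted p = 0.0292) was lost without any 1 of DMSO replicates 1, 2 and 3 and of 48 h replicates 1 and 2 (adjusted p 0.0534 to 0.111).

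Among the largest increases were genes of neural adhesion, of secreted matrix and of signalling. CNTN5, a contactin of axons, had the largest of the protein-coding genes: 1.43, 1.26 and 2.05 TPM in DMSO and 16.2, 13.9 and 15.6 TPM at 48 h, 9.66-fold higher (log2 fold change 2.67 ± 0.15, adjusted p = 1.85e-09). MATN2, a matrix protein of the matrilin family, rose from 0.91, 1.29 and 1.22 TPM to 9.91, 10.7 and 9.51 TPM (8.82-fold). SOX9, a transcription factor of epithelial progenitors, rose from 1.26, 1.48 and 1.38 TPM to 8.85, 8.55 and 8 TPM (6.17-fold, adjusted p = 6.11e-09). Treated and control libraries of these genes were all apart, which the rule that picked the largest changes required. ATP1B1, the beta subunit of the sodium-potassium pump, was the most abundant of the 15, at 211, 211 and 201 TPM in DMSO and 761, 703 and 661 TPM at 48 h (3.41-fold). CLU, which encodes the secreted chaperone clusterin, was at 4.55, 3.09 and 5.05 TPM and then at 21.4, 17.1 and 19.3 TPM (4.55-fold). NOTCH3, a receptor of the Notch family, rose 3.86-fold, CAMK2N1, an inhibitor of CaM kinase II, 5.13-fold, COLEC12, a scavenger receptor, 4.59-fold, FBXO2, a ubiquitin ligase subunit that binds glycoproteins, 3.92-fold, HOXC9, a homeobox gene, 3.95-fold, BMERB1 3.90-fold and C5orf66, annotated as an antisense transcript, 3.83-fold. Some small RNA genes, named after their values were seen, had fitted changes of this size. MIR6835 was listed at 0, 0 and 11.8 TPM in DMSO and at 14.7, 19.3 and 23.4 TPM at 48 h (adjusted p = 0.0255), and SNORA50C was at 32.6, 43.6 and 43.4 TPM and then listed at 15.2, 0 and 0 TPM (adjusted p = 0.0312), so their libraries scattered far more than those of the genes above.

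The lists below were described by counts, beside the 9.38% higher and 8.08% lower of all genes tested. Some lists were called in either direction no more often than the 17.5% of all genes. They were G2 and mitosis and the clock (17.4% each), homologous recombination and crosslink repair (15.8%), and the TCA cycle and fatty acid oxidation (13.9%). The nuclear respiratory chain (11.5%), aminoacyl-tRNA synthetases (10%) and the fibroblast and endothelial markers (0%) were the others. Over all lists 203 genes were called, and for 63 of them leaving out some single library ended the call. The genes named from the lists kept theirs in each of the 6 leave-out fits unless stated, and where single libraries moved a list's count by over 1.5 times, they are given.

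**Figure D3:**
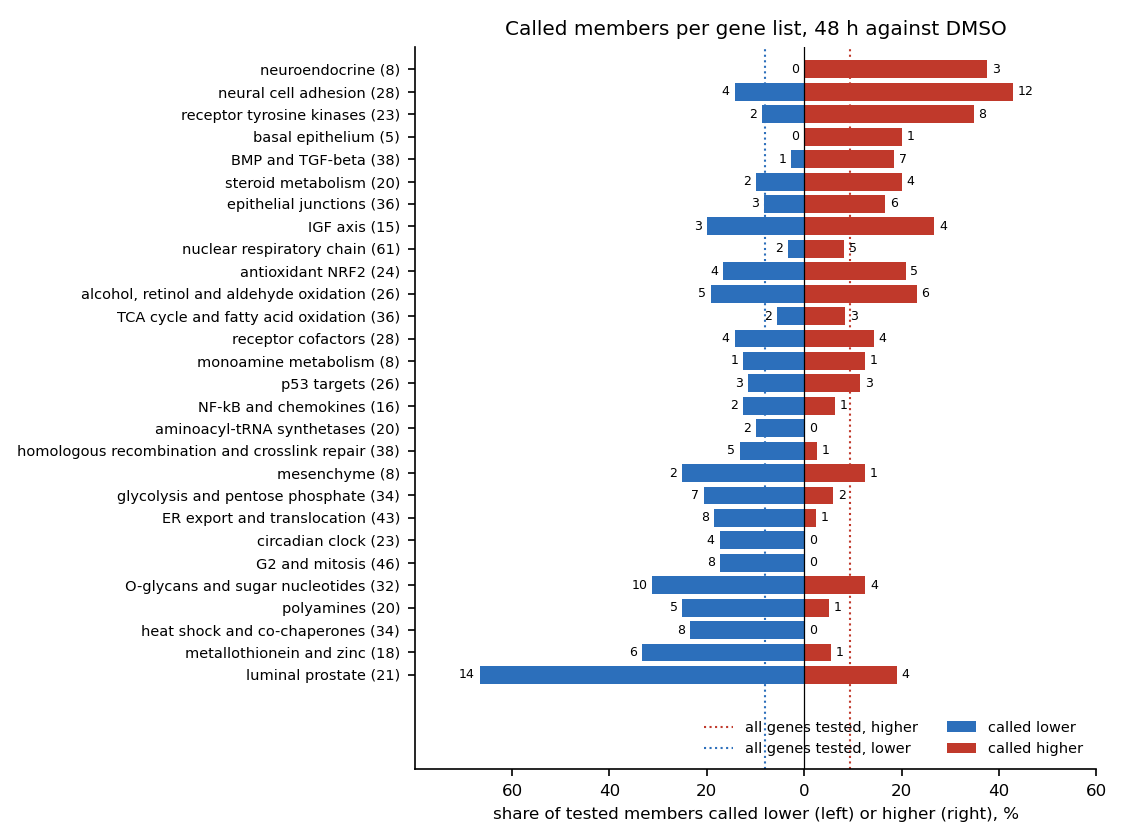
Share of the tested members of each gene list called lower (blue, left) or higher (red, right) at 48 h, in percent, with the numbers of genes at the bar ends, tested members in brackets and dotted lines at the shares of all genes tested. Luminal prostate genes have the largest share lower (14 of 21) and neural cell adhesion genes the largest share higher (12 of 28).

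Of 51 listed neural adhesion and synapse-organising genes 28 were tested, of which 12 rose and 4 fell (median log2 fold change 0.27). Their summed level was 245 to 302 TPM in the DMSO libraries and 396 to 406 TPM at 48 h. Beside CNTN5, LRRN1, a leucine-rich neuronal membrane protein, rose from 7.75, 9.25 and 7.75 TPM to 37.7, 35.9 and 34.7 TPM (4.38-fold), and CBLN2, a secreted synapse organiser, from 15.8, 17.9 and 14.7 TPM to 65.0, 66.7 and 66.5 TPM (4.10-fold). CADM2, a synaptic cell adhesion molecule, went the other way, from 5.90, 6.62 and 6.43 TPM to 1.15, 1.05 and 1.95 TPM (4.57-fold lower, adjusted p = 1.46e-06). The neurexin gene NRXN2 rose from 1.18 to 2.59 TPM on average, while NRXN3 of the same family fell from 13.5 to 6.73 TPM. Both were named after their values were seen.

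Few markers of other cell states reached the filter. Of 25 neuroendocrine markers 8 were tested, 3 of which were called higher and 0 lower. Only these 3 of the 8 had a log2 fold change above 0, and the median was -0.07. Without DMSO replicate 1 only 1 was called higher, and without 48 h replicate 2 there was 1 called lower. The neuron-specific enolase gene ENO2 rose from 14.1, 14.3 and 13.1 TPM to 36.5, 30.3 and 33.7 TPM (2.42-fold, adjusted p = 6.31e-07). The synaptic vesicle gene SYP stayed between 1.13 and 1.46 TPM in all 6 libraries, and INSM1, a transcription factor gene of neuroendocrine cells, at 0.02 TPM or less. The defining markers CHGA and INSM1 were thus at or near 0 beside the 3 calls. The other calls were CPE, a prohormone-processing peptidase (29.8 to 40.4 TPM, adjusted p = 0.0103, and 0.0503 without DMSO replicate 1), and SYT4 (adjusted p = 0.0434, lost without 5 of 6 libraries, all but DMSO replicate 2, with p up to 0.177). Of 18 basal markers 5 were tested and 1 was called, ITGB4, an integrin of hemidesmosomes, from 2.57, 2.36 and 2.75 TPM to 6.35, 7.48 and 5.91 TPM. Of 16 mesenchymal markers 8 were tested, with 1 higher and 2 lower. The median log2 fold change of these 8 was 0.18, and 5 of them were above 0. SNAI2, a transcription factor of epithelial-mesenchymal transition, fell from 4.36, 4.55 and 4.75 TPM to 0.32, 0.26 and 0.38 TPM (14.2-fold, adjusted p = 2.11e-09), SPARC fell from 1.87 to 0.560 TPM on average, and fibronectin (FN1) rose from 42.2 to 54.6 TPM. Vimentin (VIM) was at 1.93 to 2.94 TPM. None of the tested markers of fibroblasts (2) and endothelium (2) was called, except that 1 fibroblast marker was called lower without DMSO replicate 2, and 0 of 15 leukocyte markers reached the filter.

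Among 36 tested genes of epithelial junctions 6 rose and 3 fell, 3 rose without DMSO replicate 1 or 48 h replicate 1 and 11 or 12 were higher and 3 to 6 lower under the other scalings tried. The tight junction gene OCLN rose from 1.30, 1.52 and 1.05 TPM to 4.30, 3.61 and 3.85 TPM (adjusted p = 3.66e-05), GRHL1, an epithelial transcription factor, rose 1.81-fold, and the desmosomal cadherin DSG2 fell 1.56-fold.

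Enzymes that handle steroids moved in both directions: of 20 tested genes 4 rose and 2 fell (median -0.09). UGT2B15, which conjugates androgens to glucuronic acid and so inactivates them, rose from 24.6, 24.9 and 23.7 TPM to 80.1, 79.2 and 71.8 TPM (3.16-fold, adjusted p = 2.81e-09), and its close relative UGT2B17 rose 1.47-fold. UGT2B28 of the same family fell from 17.6, 19.1 and 15.8 TPM to 4.62, 5.15 and 4.49 TPM (3.68-fold, adjusted p = 6.42e-08). Members of this family can share reads, so each value is uncertain, although UGT2B15 and UGT2B28 were apart from DMSO in opposite directions in every library. The sulfotransferase gene SULT2B1 rose 1.47-fold.

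Genes for sugar nucleotides and mucin-type glycans moved in both directions, with 10 of 32 tested members lower and 4 higher. The median was -0.05, and 14 of the 32 had a log2 fold change above 0. The count lower was 6 to 8 with single libraries left out, the lowest values coming without DMSO replicate 1 or 48 h replicate 3. UAP1, which makes UDP-N-acetylglucosamine, was at 217, 238 and 215 TPM in DMSO and at 76.7, 73.6 and 70.2 TPM at 48 h (3.04-fold lower, adjusted p = 5.61e-10). GALNT7, which adds N-acetylgalactosamine to mucin-type glycopeptides, fell 2.15-fold, while ST3GAL1, a sialyltransferase that caps the same glycans, rose 1.37-fold. The summed level of the list was 1381 to 1560 TPM in DMSO and 1104 to 1141 TPM at 48 h, with no overlap. This sum includes ST6GALNAC1, which averaged 132 TPM in DMSO and 3.90 TPM at 48 h, and UAP1, at 223 and 73.5 TPM.

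The machinery that moves proteins into and out of the endoplasmic reticulum leaned downwards, with 8 of 43 members lower, 1 higher and a median of -0.14. Counts lower were 3 to 8 with 1 library left out, fewer without DMSO replicates 1 and 2 and any 48 h library, and the 1 call higher was lost in all 6 fits. Median-of-ratios scaling gave 13 lower and 0 higher, and quantile normalization 8 lower and 2 higher. SRPRB, a subunit of the signal recognition particle receptor, fell from 142, 153 and 135 TPM to 97.3, 95.5 and 107 TPM (1.43-fold), SSR3, a translocon-associated protein, fell 1.30-fold and TMED9, a cargo receptor, 1.32-fold. These changes are small, though for all 3 every treated library lay below every DMSO library.

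Of 20 polyamine genes 5 fell and 1 rose (1 to 5 called higher under other settings, 5 under quantile normalization, and 2 without DMSO replicate 2). SAT1, which acetylates spermidine and spermine for export, fell from 88.6, 79.6 and 88.7 TPM to 47.9, 46.6 and 47.2 TPM (adjusted p = 1.05e-07), and the synthases of spermidine (SRM) and spermine (SMS) fell 1.26-fold each. SAT2, a relative of SAT1, rose 1.39-fold. Prostate epithelium is known for secreting polyamines, and both synthesis and acetylation genes were among the 5 that fell.

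Of the 8 tested genes of monoamine metabolism 2 were called, in opposite directions. DDC, which decarboxylates L-DOPA and 5-hydroxytryptophan, rose from 18.8, 18.1 and 20.7 TPM to 101, 99.3 and 101 TPM (5.24-fold, log2 fold change 2.33 ± 0.10, adjusted p = 9.65e-11). MAOA, which breaks monoamines down, fell from 433, 474 and 405 TPM to 134, 128 and 128 TPM (3.37-fold, -1.74 ± 0.10, adjusted p = 4.37e-09). Among 26 tested genes of alcohol, retinol and aldehyde oxidation, 6 rose and 5 fell. Beside ADH1C, ALDH1A3, a retinal dehydrogenase, fell from 21.2, 27.2 and 21.1 TPM to 12.6, 11.2 and 10.9 TPM, while the retinol-binding protein gene RBP5 rose from 1.87, 2.45 and 1.37 TPM to 7.81, 7.5 and 7.27 TPM (3.97-fold) and ALDH2 rose 1.41-fold.

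Of 15 tested genes of the insulin-like growth factor axis 4 rose and 3 fell, and median-of-ratios scaling gave 5 in each direction. IGFBP3, a binding protein of the factors, rose from 12.6, 15.1 and 12.6 TPM to 46.3, 42.2 and 43.2 TPM (3.26-fold, adjusted p = 7.13e-11), and GRB10, an adaptor that restrains the receptor, from 55.6, 61.4 and 49.1 TPM to 145, 145 and 148 TPM (2.64-fold). The receptor gene IGF1R fell from 13.7, 14.9 and 11.5 TPM to 3.78, 3.93 and 4.51 TPM (3.28-fold, adjusted p = 5.25e-07), so receptor and binding protein moved in opposite directions in every library. HTRA1, a protease that cleaves IGF-binding proteins, rose 1.48-fold.

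Receptor tyrosine kinase genes had 8 of 23 members higher and 2 lower (median 0.23), with 4 higher without DMSO replicate 3 or 48 h replicate 1 as the smallest count. ERBB2 rose from 18.9, 19.5 and 19.4 TPM to 27.8, 24.1 and 26.0 TPM, MERTK, a receptor of the TAM family, rose 2.04-fold, and the ephrin receptor gene EPHB6 fell from 3.12, 2.33 and 2.30 TPM to 0.56, 0.21 and 0.28 TPM. ROR2, a receptor of WNT ligands, rose from 0.05, 0.17 and 0.21 TPM to 1.18, 0.92 and 0.82 TPM, all low levels.

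Of 38 tested genes of BMP and TGF-beta signalling 7 rose and 1 fell, with 4 to 6 higher when single libraries were left out and the smallest counts without DMSO replicate 3 and 48 h replicate 2. Other scalings gave 8 to 10 higher and 2 or 3 lower. The gene that fell was PMEPA1. BAMBI, a pseudoreceptor that dampens the pathway, rose from 24.0, 22.7 and 20.4 TPM to 51.1, 47.4 and 44.7 TPM (adjusted p = 6.53e-08). ID2 and ID1, inhibitors of differentiation that BMP signals induce, rose 1.52-fold and 1.54-fold.

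Proliferation genes fell slightly or not at all. MKI67 was at 32.5, 39.6 and 31.2 TPM in DMSO and at 30.5, 29.1 and 32.5 TPM at 48 h, with overlapping libraries and no call (log2 fold change -0.15 ± 0.13, adjusted p = 0.469). Of 46 genes of G2 and mitosis 8 fell and 0 rose, with a median of -0.11, and 4 of the 46 had a log2 fold change above 0. The count lower was 5 to 7 with 1 library left out, smaller by over 1.5 times without DMSO replicate 1 or 2 or 48 h replicate 2 or 3, and 14 after median-of-ratios scaling. CDC25A, a phosphatase that activates cyclin-dependent kinases, fell from 34.7, 36.3 and 31.8 TPM to 25.7, 25.1 and 23.5 TPM (1.39-fold, adjusted p = 0.00033), the checkpoint kinase gene TTK fell 1.45-fold, AURKB 1.25-fold and the transcription factor gene MYBL2 1.22-fold. MYC fell from 265, 312 and 255 TPM to 181, 195 and 186 TPM (1.48-fold, adjusted p = 0.00588).

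Homologous recombination and crosslink repair had 5 of 38 members lower and 1 higher (median -0.11), and 2 to 4 lower with 1 library left out, smaller by over 1.5 times for all but DMSO replicate 2. The count lower was 10 after median-of-ratios scaling and 7 after quantile normalization. The checkpoint kinase gene CHEK2 fell 1.45-fold and RAD51C, a recombination gene, 1.29-fold. BARD1, the partner of BRCA1, was the 1 that rose, from 26.7, 32.2 and 24.0 TPM to 47.1, 44.5 and 47.9 TPM (adjusted p = 0.000299).

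Heat shock proteins and their co-chaperones had 8 of 34 members lower and 0 higher, with the lowest median of the stress and metabolism lists, -0.18. Under the 3 other scalings 13 to 17 were called lower and 1 higher. DNAJB9, a chaperone of the endoplasmic reticulum, fell from 9.76, 12.2 and 8.80 TPM to 3.99, 4.09 and 3.64 TPM (2.62-fold, adjusted p = 4.7e-05), and HSPH1, a nucleotide exchange factor of HSP70, from 205, 237 and 222 TPM to 156, 168 and 163 TPM (1.36-fold). CHORDC1, an HSP90 co-chaperone, fell 1.44-fold and DNAJB11 1.28-fold. The summed level was 7726 to 8594 TPM in DMSO and 6735 to 6906 TPM at 48 h.

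Of 34 tested genes of glycolysis and the pentose phosphate path 7 fell and 2 rose, 26.5% against the 17.5% of all genes (4 to 7 lower with 1 library left out, the smallest without DMSO replicate 2 and 48 h replicate 2). Other scalings gave 9 or 10 lower and 4 or 5 higher. Hexokinase 2 (HK2) fell from 19.97, 20.4 and 17.3 TPM to 12.3, 12.1 and 11.1 TPM (1.62-fold, adjusted p = 0.000761) and PFKFB2, which makes the activator of phosphofructokinase, 1.37-fold, while the aldolase gene ALDOC rose 1.36-fold beside ENO2. Of 61 nuclear genes of the respiratory chain 5 rose and 2 fell, 11.5% against the 17.5% of all genes. These counts moved with single libraries, to 1 to 5 higher and 0 to 3 lower, for all but DMSO replicate 3 and DMSO replicate 1 and 48 h replicate 2 respectively, and with scaling: 2 higher and 3 lower after median-of-ratios scaling, 12 and 3 after quantile normalization, and 5 and 4 without mitochondrially encoded genes. NDUFB4, a subunit of complex I, was at 2222, 2140.25 and 2282 TPM in DMSO and at 2871, 3013 and 2955 TPM at 48 h (1.33-fold higher, adjusted p = 0.00014). Of 36 tested genes of the TCA cycle and fatty acid oxidation 3 rose and 2 fell (1 lower without DMSO replicate 1 or 2 or 48 h replicate 2 or 3). Quantile normalization gave 9 higher and 2 lower, rescaling without mitochondrially encoded genes 6 and 5, and median-of-ratios scaling 5 and 5. HADHB and DECR1, enzymes of beta-oxidation, rose 1.32-fold and 1.34-fold and ECI2, another, fell 1.34-fold. Of 20 cytosolic aminoacyl-tRNA synthetase genes 2 fell, or 1 without DMSO replicate 2, and VARS, for valine, fell 1.2-fold.

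Genes of stress signalling were mixed. Of 24 tested genes listed for the antioxidant factor NRF2 5 rose and 4 fell (2 lower without DMSO replicate 2 or 48 h replicate 2 or 3). The ferritin light chain gene FTL rose from 435, 420 and 434 TPM to 615, 592 and 622 TPM and GSTA4, a glutathione transferase, rose 1.46-fold, whereas the export pumps ABCC1 and ABCC4 fell from 70.7, 71.3 and 63.5 TPM to 36.9, 35.0 and 34.4 TPM and from 36.2, 43.9 and 34.4 TPM to 13.3, 11.4 and 12.02 TPM (adjusted p = 2.6e-07 and 2.62e-07). Of 26 tested p53 targets 3 rose and 3 fell. SESN1, a sestrin, rose from 16.4, 16.0 and 16.1 TPM to 34.5, 33.8 and 32.8 TPM (2.08-fold, adjusted p = 1.8e-07), TP53INP1 1.61-fold and PLK3 1.49-fold, and the death receptor gene TNFRSF10B fell 1.33-fold. Of 16 tested genes of NF-kB and chemokines 2 fell and 1 rose (0 rose without DMSO replicate 2 or 3 or any 48 h library). NFKBIA, the inhibitor of NF-kB, fell from 108, 102 and 97.1 TPM to 61.0, 62.7 and 60.7 TPM and TNFAIP8 fell 2.01-fold.

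Of 23 tested clock genes 4 fell and 0 rose, with 1 higher without 48 h replicate 2. PER1, a clock repressor that steroid hormones induce, fell from 37.2, 36.2 and 34.8 TPM to 14.3, 15.4 and 16.6 TPM (2.34-fold, adjusted p = 7.02e-06), BHLHE40 fell 1.39-fold and the PAR bZIP factor gene HLF fell from 6.83, 7.28 and 4.32 TPM to 3.03, 2.74 and 2.50 TPM (adjusted p = 0.00117). The time of day of each harvest was not given in the sources used here, so time of day and treatment cannot be told apart for these genes. The fourth was PER2 (4.19, 3.96 and 3.80 TPM, then 2.81, 2.46 and 2.83 TPM), whose call (adjusted p = 0.0154) was lost without DMSO replicate 1 or 48 h replicate 2, with p up to 0.0680.

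Prostate epithelium is also known for accumulating zinc, which metallothioneins bind. Of 18 tested genes of metallothioneins and zinc transporters 6 fell and 1 rose (3 lower without DMSO replicate 2, the smallest count, and 2 higher without 48 h replicate 3). MT1X fell from 217, 192 and 211 TPM to 124, 113 and 120.3 TPM (1.74-fold, adjusted p = 4.36e-07), the zinc importer gene SLC39A4 fell 1.28-fold, and SLC30A4, an exporter of zinc from the cytosol, rose from 50.2, 52.1 and 46.8 TPM to 87.8, 77.8 and 76.5 TPM (1.62-fold). Metallothionein genes are near-identical copies, and reads can be split among them wrongly.

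Compared directly with 24 h, 48 h differed in 1.11% of genes, 0.526% higher and 0.581% lower, and the 96 h libraries differed from those of 48 h in 1.28%, 0.934% higher and 0.346% lower. These shares rest on 179 and 207 genes. Without each of the 6 libraries in turn, the first was 75 to 108 and the second 79 to 166, and 31 genes differed between 48 and 96 h when the spread was taken from these 6 libraries alone. Of the 207, 72.9% were higher at 96 h, against 56.8% of 405 after median-of-ratios scaling, 56.2% of 436 after quantile normalization and 61.4% of 417 without mitochondrially encoded genes. The mitochondrial share of the 96 h libraries ran from 15.1% to 24.0%. Of the 1517 genes higher at 48 h than in DMSO, 81 were further from DMSO than at 24 h, 3 less far and 1433 not called different, and of the 1306 lower these counts were 69, 0 and 1237. From 48 to 96 h 115 of the 1517 moved further and 4 back, and 33 of the 1306 further and 2 back.

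Several genes with large 48 h changes were still moving. KLK3 averaged 1021 TPM in DMSO, 313 at 24 h, 171 at 48 h and 71.8 at 96 h, and KLK2 151, 23.8, 11.9 and 7.01 TPM. ST6GALNAC1 averaged 132, 13, 3.90 and 1.24 TPM. SCGB1A1 had the largest step between 24 and 48 h, with 11.8 TPM in DMSO, 7.42 at 24 h and 0.653 at 48 h (adjusted p = 8.94e-07 for 48 h against 24 h), so it fell later than the kallikreins by these averages. Of the genes that rose, DDC averaged 19.2, 50.1, 101 and 217 TPM, and MAST4, a serine-threonine kinase gene, 6.003, 7.34, 16.97 and 40.01 TPM, with no call at 24 h against DMSO (adjusted p = 0.198). Other genes had no call for a further step. TMPRSS2 averaged 109, 32.6, 32.8 and 33.3 TPM (log2 difference of 48 h and 24 h 0.01 ± 0.12, adjusted p = 0.996). SOX9 was at 8.07 TPM at 24 h and 8.47 at 48 h (0.06 ± 0.12, adjusted p = 0.923). At 96 h SOX9 averaged 11.8 TPM, higher than at 48 h but without a call (0.42 ± 0.12, adjusted p = 0.116).

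**Figure D4:**
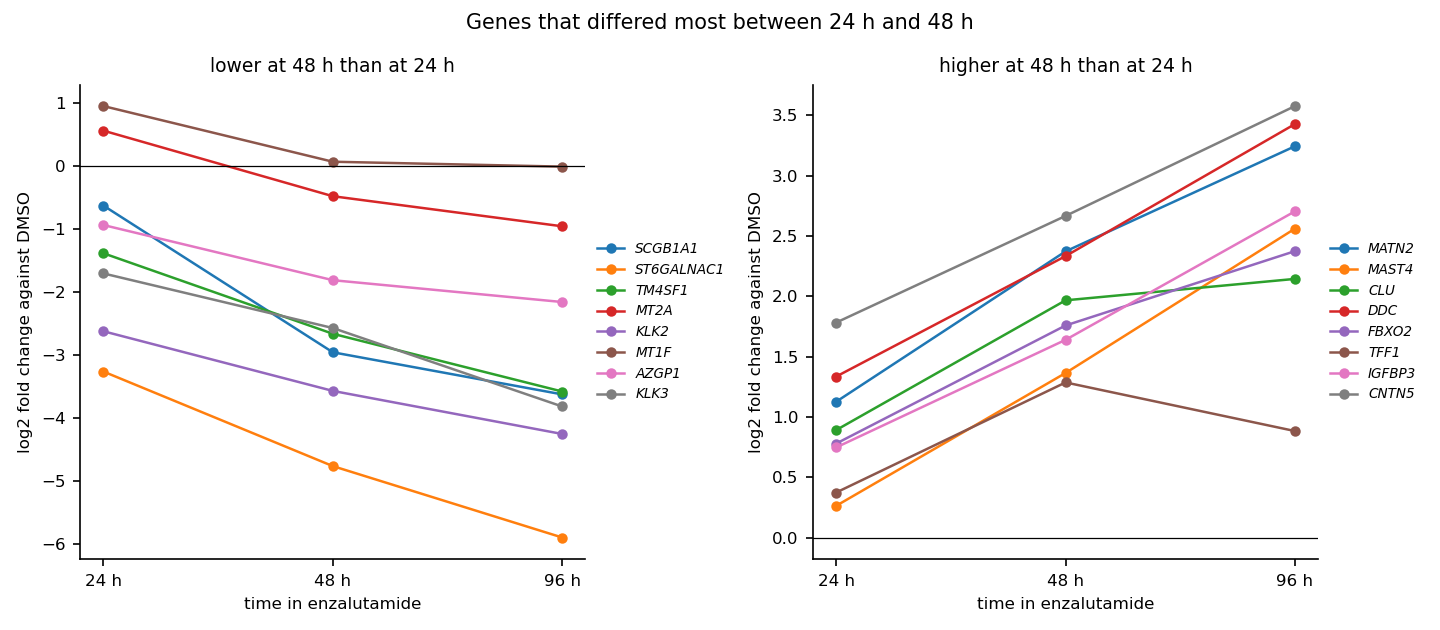
Log2 fold change against DMSO (vertical axis) at 24, 48 and 96 h, evenly spaced and not to scale in time, for the 8 genes that were lowest and the 8 that were highest at 48 h relative to 24 h, of those called with at least 5 TPM on average at the higher time. All points share the same 3 DMSO libraries. MT2A lies at 0.56 at 24 h and at -0.48 at 48 h.

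Of all genes tested, MT2A was the only one called in opposite directions against DMSO at 24 and 48 h. This metallothionein gene was at 492, 462 and 510 TPM in DMSO, averaged 722 ± 37.6 TPM (SD, n = 3) at 24 h, was at 350.04, 342 and 358 TPM at 48 h and averaged 251 ± 7.42 TPM at 96 h. Its log2 fold change against DMSO was 0.56 at 24 h (adjusted p = 1.55e-05) and -0.48 ± 0.06 at 48 h (adjusted p = 5.34e-05), and 48 h was lower than 24 h by -1.04 ± 0.06 (adjusted p = 3.26e-07). MT1F, another metallothionein gene, averaged 6.29 TPM in DMSO, 13.3 at 24 h and 6.74 at 48 h, and its step (adjusted p = 0.0157) was lost without 24 h replicate 1 or 2 or 48 h replicate 1 or 2 (p up to 0.103). TFF1, a secreted trefoil peptide, was higher at 48 h (19.3, 15.6 and 19.7 TPM) than at 24 h (9.15 ± 0.509 TPM), and averaged 13.5 TPM at 96 h without a call for that step (adjusted p = 0.0812).

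Among genes with at least 5 TPM on average at the higher time, clone and small RNA names left out, the largest decreases between 48 and 96 h were in S100P, a calcium-binding protein (315 to 119 TPM on average), KLK3, TMEFF2, a transmembrane protein with follistatin domains (40.4 to 17.4 TPM), ELOVL7, a fatty acid elongase (11.2 to 5.70 TPM), and CSTA, a protease inhibitor (12.1 to 6.64 TPM). S100P differed little from DMSO at 48 h (log2 fold change -0.35 ± 0.09, adjusted p = 0.0185, lost without DMSO replicate 1 or 2 or 48 h replicate 2 or 3 with p up to 0.0722), so most of its fall came later. CSTA had no call at 48 h against DMSO (adjusted p = 0.777). Under the same limits the largest increases were in the small nuclear RNA gene RN7SK (3.86 to 11.4 TPM), RMRP (116 to 266 TPM), MAST4, DDC and the growth factor gene MDK (20.01 to 43.1 TPM). RN7SK and RMRP are short RNAs without a regular poly(A) tail, so their recovery in poly(A)-selected libraries is uncertain. The step of RMRP (adjusted p = 0.0421) was lost without any 1 of the 6 libraries, with p up to 0.186. When the spread was taken from these 6 libraries alone, the steps of MDK, ELOVL7 and CSTA had no call (adjusted p = 0.0616, 0.0747 and 0.0688).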

How the data were processed

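The deposited table gives gene-level TPM for 18 libraries of 6 groups, made by the authors; per the submitters' processing notes STAR, RSEM, Partek and the builds hg38 and GRCh38 were used, with no versions stated. The kit selected poly(A) RNA and kept strand, and reads were single and of 50 bp, per the labels' protocols. TPM keeps no depth, so the depth per library is unknown and no counting interval is given. Of 60623 gene IDs 58516 matched GENCODE 29, which gave gene types and coordinates, and 71 symbols occur more than once. Genes with at least 1 TPM in at least 3 of the 18 libraries were tested on log2(TPM + 1) with limma 3.58.1 (R 4.3.3): 6 group means, 1 shared spread, moderated tests with a variance trend, two-sided, and Benjamini-Hochberg adjustment over all 16169 genes. A fold change on this scale understates changes of low genes, and the fold values printed are ratios of mean TPM. The script was tested on simulated data. Tables and figures were made with Python 3.11.15, numpy 2.4.6, pandas 2.3.3 and matplotlib 3.10.9. The authors' mean columns equalled the library means within 0.01 for all genes, and their fold columns were not used here.

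The members and gene lists were chosen with earlier results of these data known. Named genes were the 15 with the largest called change in each direction at 48 h (no overlap between groups, at least 5 TPM on average in the higher group, no clone, LINC, antisense, small RNA, pseudogene or Y-linked names), the 4 called members of each list with the smallest adjusted p, the 8 with the largest step from 24 to 48 h and the 5 from 48 to 96 h in each direction, and a panel of KLK3, KLK2, TMPRSS2, FKBP5, MYC, HK2, MKI67 and others. Some genes under these rules are not reported here. The alternatives tried were: no filter or one at 5 TPM, 0.1 as pseudocount, quantile normalization, median-of-ratios scaling, leaving mitochondrially encoded genes out of the total, fitting the 2 groups compared alone, no variance trend, the replicate number as a block, the mitochondrial share as a covariate, and leaving out each library. A search of promoters with 1 mismatch was added after the KLK2 promoter was seen. Promoters are from RefSeq (GRCh38.p14), and 10321 of 16134 tested symbols matched one.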

Additional observations from a re-analysis of the deposited data

Results flagged for a closer look

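The change against DMSO was compared between 48 h and each neighbouring time in a direct test of the difference (limma, Benjamini-Hochberg adjusted p under 0.05). It differed for 45 of the 135 named genes at 24 h and 39 at 96 h, beside 1.11% and 1.28% of all genes tested. The named genes were picked in part by these same tests and by large changes at 48 h, so their counts are no result about them. Given here are the 26 largest differences picked by the naming rule, 8 in each direction from 24 to 48 h and 5 from 48 to 96 h. Values are log2 differences on log2(TPM + 1). Higher at 48 h than at 24 h were MATN2 (1.25), MAST4 (1.10), CLU (1.08), DDC (1.00), FBXO2 (0.98), TFF1 (0.91), IGFBP3 (0.89) and CNTN5 (0.88). Lower at 48 h than at 24 h were SCGB1A1 (-2.33), ST6GALNAC1 (-1.50), TM4SF1 (-1.28), MT2A (-1.04), KLK2 (-0.95), MT1F (-0.88), AZGP1 (-0.87) and KLK3 (-0.87). Higher at 96 h than at 48 h were RN7SK (1.37), RMRP (1.202), MAST4 (1.197), DDC (1.09) and MDK (1.09). Lower at 96 h than at 48 h were S100P (-1.40), KLK3 (-1.24), TMEFF2 (-1.18), ELOVL7 (-0.87) and CSTA (-0.78). The steps of MT1F and RMRP did not hold without single libraries, as given above, and those of MT1F, MDK, ELOVL7 and CSTA had no call in the fit of only the libraries compared (adjusted p 0.0616 to 0.0747 for the last 3).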

How the results depend on the processing

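Of the 135 named genes 129 were called at 48 h against DMSO, and most had been picked by rules that required this call. Of the 129, 115 stayed called in every alternative that tested them, 15 or 16 for each gene, and none changed direction. Of the 45 and 39 called against 24 h and at 96 h, 24 and 14 stayed called under all 15. With 1 library left out, genes called lower at 48 h numbered 843 to 1128, genes called against 24 h 75 to 108 and genes called between 48 and 96 h 79 to 166. A pseudocount of 0.1 gave 544 called genes with a log2 fold change of 1 or more in size. Against 24 h, 341 genes were called after median-of-ratios scaling, 347 after quantile normalization and 334 after rescaling without mitochondrially encoded genes, and between 48 and 96 h these were 405, 436 and 417, with 31 in the fit of both groups only. The cause of these shifts was not tested. Same-numbered DMSO and 48 h libraries correlated in their deviations from the group means with r of 0.0401, 0.00977 and 0.0239. For differently numbered ones r ran from -0.0414 to 0.0188. With 3 libraries a group, these values cannot decide whether replicate numbers pair the libraries. With the replicate block 2650 genes were called at 48 h against DMSO, 159 against 24 h and 167 between 48 and 96 h. Depth is unknown, so low values such as those of TRGJP carry an unstated counting error.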
